A study of Mus musculus with 4 samples.

Results

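Sense non-exonic long noncoding RNAs (lncRNAs) were examined in C3H10T1/2 cells, a mouse mesenchymal stem cell line, before and after exposure to 5-azacytidine (5-AZA). The set holds every transcript of the deposited lncRNA table that has a mouse NONCODE transcript identifier and the class Sense No Exonic, which came to 4074 of the 131850 lncRNAs in the table. Levels are FPKM, the fragments mapped to a transcript divided by its length and by the size of the library. The 1124 transcripts that averaged 0.1 FPKM or more across the 4 samples were tested for a change.

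The untreated group had 2 samples of total RNA (replicates 1 and 2), and the 5-AZA group had 2 (replicates 101 and 102) from cells that, per the labels, were kept with 5-AZA at 20 µmol/L for 72 h and then in fresh medium for 21 days. 5-AZA is a cytidine analog that is built into nucleic acids and blocks DNA methyltransferases. The labels give no culture time for the untreated samples, so the drug and the added weeks of culture cannot be told apart. Ribosomal RNA was removed and strand-specific libraries were sequenced. All 4 samples come from 1 cell line, and no gene was altered in any of them.

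A lncRNA is a transcript beyond a set minimum length that is not known to code for protein. NONCODE is a catalogue of such transcripts. The sense non-exonic class is meant to hold transcripts on the same strand as a gene that do not run over its exons, as an RNA made from inside an intron would be. Such RNAs can be transcripts of their own, pieces of a pre-mRNA that outlast splicing, hosts of small RNAs, or retained introns, and an FPKM value does not separate these. A strand-specific total RNA library also holds unspliced pre-mRNA of the same strand, which covers the same bases.

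The class label was set beside the positions of the genes. The submitters' notes name mm9, but 1985 lncRNA spans in the table equal a RefSeq gene span of GRCm38.p6 base for base, so positions were read as GRCm38.p6. Of the 1124 transcripts tested, 510 (45.4%) lay wholly within a protein-coding gene of the same strand, in 342 such genes, and 27 lay partly over one. Another 124 lay over a same-strand gene that is not in the mRNA table, such as Malat1, Snhg1 or Ftx, which are themselves lncRNA genes. A gene whose strand was not known was under 286 (25.4%), 38 had a gene on the opposite strand only, and 139 (12.4%) had no gene under them at all. The label and the positions therefore differed for part of the set, and the name is used here only as the catalogue's label. Whether the table's class labels belong to the coordinates beside them was not tested, so comparisons between classes are comparisons of labels. The share within a same-strand gene was 44.0% for the intergenic class (Linc), 40.2% for the antisense class and 46.0% for the exonic class. Overlap with exons was not examined here.

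The transcripts also sat unevenly on the chromosomes. Chromosomes 1, 2, 3 and 14 to 19 held 3712 of the 4074 (91.1%), whereas 41.4% of all NONCODE lncRNAs in the table lay there. Chromosome 2 held 736, chromosome 12 held 2, and chromosomes 5, 6 and 7 held none. The catalogue entries overlap one another as well, since the 4074 transcripts had 3972 distinct spans and 379 of the 1124 tested overlapped another lncRNA on the same strand.

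Among the transcripts tested, 3 held mature microRNAs of RefSeq on the same strand, and these are printed because the lncRNA span includes the microRNA's own bases. NONMMUT022786.2 is 1 exon of 3928 bases within Zfr, which encodes a zinc finger RNA-binding protein, and holds mmu-miR-1898. NONMMUT038285.2 is 1 exon of 3509 bases and holds both arms of mmu-miR-130a. NONMMUT073494.2 has 11 exons, follows Ftx of the X inactivation centre, and spans mmu-miR-421 and mmu-miR-374b. Mature sequences are from RefSeq (GRCm38.p6), 5′ to 3′, with the seed (bases 2 to 8), the stretch through which a microRNA pairs with its targets, in capitals.
mmu-miR-1898 (chr15:12171502-12171523, + strand): aGGUCAAGguucacaggggauc
mmu-miR-130a-3p (chr2:84741116-84741137, − strand): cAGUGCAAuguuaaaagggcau
mmu-miR-130a-5p (chr2:84741155-84741176, − strand): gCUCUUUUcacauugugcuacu
mmu-miR-421-5p (chrX:103572966-103572986, − strand): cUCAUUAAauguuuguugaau
mmu-miR-374b-3p (chrX:103573075-103573096, − strand): gGUUGUAUuaucauuguccgag
mmu-miR-374b-5p (chrX:103573112-103573133, − strand): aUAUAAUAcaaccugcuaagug
No seed was shared among the 6. The levels of the lncRNAs around them were close between the groups. NONMMUT022786.2 was measured at 7.81 and 9.33 FPKM in the untreated samples and at 6.82 and 5.12 FPKM after 5-AZA. NONMMUT038285.2 gave 1.33 and 1.22 FPKM untreated and 0.992 and 0.885 FPKM after 5-AZA, and NONMMUT073494.2 gave 0.284 and 0.786 FPKM against 0.503 and 0.699 FPKM. The first pair of transcripts was lower in both 5-AZA samples and the third overlapped between groups. None of the 3 was called (limma adjusted p of 0.462, 0.574 and 0.857), and they were chosen after their values were seen.

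The start of a transcript could be shown with its upstream bases only where it fell in a RefSeq promoter window, which reaches from 250 bases before to 50 bases after a gene's annotated start. This was so for 92 of the 1124 transcripts tested (8.19%). Windows are printed for NONMMUT033604.2 over Malat1, which is 1 of 4 overlapping transcripts of this class there, and for NONMMUT029371.2. The latter starts in 1110038B12Rik and is described below as lower after 5-AZA. Lower case marks bases before the lncRNA's start and capitals mark its own first bases.
NONMMUT033604.2 (chr19:5802623-5802922, − strand, GRCm38.p6): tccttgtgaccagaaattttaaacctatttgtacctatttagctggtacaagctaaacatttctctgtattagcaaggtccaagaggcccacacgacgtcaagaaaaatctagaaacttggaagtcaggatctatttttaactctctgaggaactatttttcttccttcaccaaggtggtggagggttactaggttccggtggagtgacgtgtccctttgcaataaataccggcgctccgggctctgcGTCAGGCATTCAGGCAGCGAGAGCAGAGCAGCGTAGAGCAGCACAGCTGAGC
NONMMUT029371.2 (chr17:34952419-34952718, − strand, GRCm38.p6): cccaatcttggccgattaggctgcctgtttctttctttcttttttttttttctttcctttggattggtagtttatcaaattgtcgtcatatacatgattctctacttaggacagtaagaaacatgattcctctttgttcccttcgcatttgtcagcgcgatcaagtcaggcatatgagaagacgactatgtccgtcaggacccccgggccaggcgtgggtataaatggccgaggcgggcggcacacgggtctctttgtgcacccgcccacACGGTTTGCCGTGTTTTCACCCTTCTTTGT
CpG, the dinucleotide that DNA methyltransferases act on, was counted as the letters CG, which read the same on both strands. The Malat1 window held 10 CpG and the 1110038B12Rik window held 16. Among all 32851 RefSeq promoter windows of this length the median was 7, with 43.5% holding at least 10 and 33.0% holding at least 16. Methylation was not measured here.

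Most of the transcripts were at or near nothing in these cells. Of the 4074, 1676 (41.1%) were listed at 0 in all 4 samples and a further 1274 (31.3%) were above 0 with a mean below 0.1 FPKM. The 1124 that passed had a median of 0.594 FPKM, with quartiles of 0.276 and 1.36 FPKM, and 376 of them reached a mean of 1 FPKM and 33 a mean of 10 FPKM. A mean of at least 0.1 FPKM was found in both groups for 947, in the untreated group only for 82 and in the 5-AZA group only for 95. The number at 1 FPKM or more was 393 and 403 in the untreated samples and 351 and 332 in the 5-AZA samples. The files give no read counts, so the depth behind each value is unknown.

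The limit of 0.1 FPKM separated transcripts that differed little. Just inside it were NONMMUT001753.2 (mean 0.1001 FPKM), NONMMUT031734.2 (0.1003 FPKM) and NONMMUT083458.1 (0.101 FPKM). Just outside were NONMMUT029095.2 (0.0996 FPKM), NONMMUT036127.2 (0.0995 FPKM) and NONMMUT042675.2 (0.0994 FPKM). NONMMUT036127.2 had its whole signal in 1 untreated sample, at 0.398 FPKM, and NONMMUT029095.2 in 1 5-AZA sample, at 0.398 FPKM.

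The share detected differed by exon number and by length. Of the 1841 transcripts with 1 exon, 829 (45.0%) reached 0.1 FPKM, compared with 164 of the 1162 with 2 exons (14.1%) and 131 of the 1071 with 3 or more (12.2%). The share at 1 FPKM or more was 15.6%, 3.61% and 4.3% in the same order. By length, 6.99% of those under 500 bases passed, 17.2% from 500 to under 1000, 32.1% from 1000 to under 2000 and 41.7% at 2000 bases or more. Among transcripts with 1 exon the share rose from 16% under 500 bases to 53.3% at 2000 bases or more, and among those with 2 exons from 5.68% to 28.5%. With 3 or more exons it went from 2.27% under 500 bases to 12.5%, 11% and 19.4%, so that it did not rise at every step. Once a transcript had passed, its level hardly followed its length (Spearman rho 0.06 over 1124 transcripts from the same 4 libraries) or its exon number (rho −0.11). The exonic class gave nearly the same shares by exon number (46.6%, 15.5% and 11.9%), and the intergenic class gave 35.5%, 11.1% and 8.69%, so that 1 exon also gave the highest share there.

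**Figure D1:**
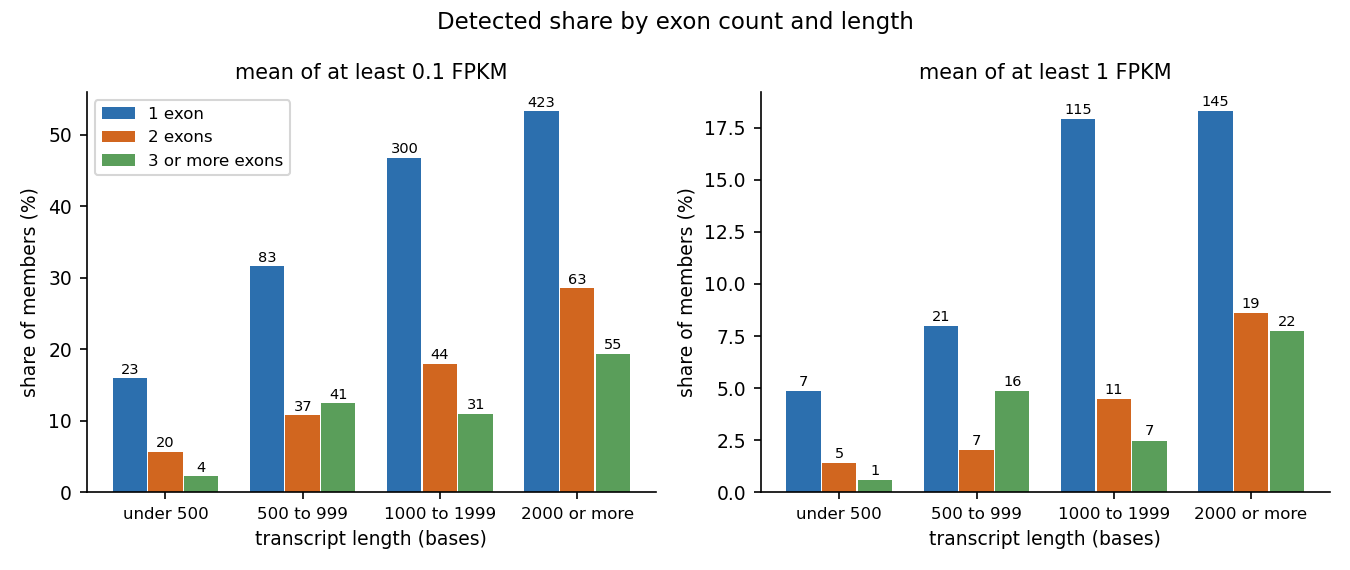
Bars give the share of sense non-exonic lncRNAs (vertical axis, percent) with a mean of at least 0.1 FPKM (left) or at least 1 FPKM (right), by transcript length in bases and by exon number, and the digits above the bars are the numbers of transcripts. Transcripts with 1 exon have the tallest bar at every length, up to 53.3% on the left for 2000 bases or more.

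The highest level belonged to NONMMUT071574.2, which lies over the mitochondrial 12S ribosomal RNA gene mt-Rnr1 and is the only transcript of the class on the mitochondrial genome. It was listed at 19669 and 21578 FPKM in the untreated samples and at 22716 and 17044 FPKM after 5-AZA, and the groups overlapped. Its span is that of an abundant rRNA, and the 2 cannot be told apart in this table. NONMMUT029098.2, over the ribosomal protein pseudogene Rps2-ps8, gave 110.7, 102.8, 77.8 and 103.9 FPKM in the order untreated 1 and 2, 5-AZA 101 and 102, and this value is uncertain because such a copy can share reads with its parent gene. NONMMUT074163.2 on chromosome X, with no gene under it, gave 92.9, 101.1, 85.0 and 76.6 FPKM in the same order. NONMMUT033604.2 over Malat1, a nuclear lncRNA found at high levels in most cells, gave 41.0 and 42.1 FPKM untreated and 32.8 and 28.1 FPKM after 5-AZA. It was lower in both 5-AZA samples but was not called (log2 fold change −0.45 ± 0.17 SE, adjusted p = 0.395). It shares its bases with other entries, as 27 lncRNAs of the table overlap there, itself included, and 4 of these are of this class. Together the 27 gave 4237 and 4194 FPKM untreated and 3874 and 4006 FPKM after 5-AZA.

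The other transcripts that led their class of exon number and length showed small changes. NONMMUT000121.2 and NONMMUT000124.2, which lie over the small nucleolar RNA host gene Snhg6, had means of 10.5 and 9.80 FPKM and changes of 0.28 and −0.18 on the log2 scale. NONMMUT029649.2 (mean 11.2 FPKM), NONMMUT038259.2 within Ctnnd1, which encodes the cadherin partner p120 catenin (8.79 FPKM), and NONMMUT039411.2 within Tmem87a (8.40 FPKM) changed by −0.55, −0.68 and 0.09. None of these 5 was called, with adjusted p from 0.374 to 0.880.

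The transcripts that lay within a protein-coding gene of the same strand were far below that gene. A host gene at 0.1 FPKM or more was found for 503 transcripts in 336 genes, and 495 of the 503 (98.4%) were below it. The median level was 0.690 FPKM for the lncRNAs and 10.5 FPKM for the hosts, and the median ratio was 0.0705. Levels of lncRNA and host went together in part (Spearman rho 0.47 over 503 transcripts measured in the same libraries). Within the gene, the lncRNA's centre lay at a median of 0.422 of the gene's length from its 5′ end. Of 510, 23 (4.51%) ended within 1000 bases of the gene's 3′ end and 50 (9.80%) began within 1000 bases of its 5′ end. These shares were 7.32% and 7.28% for the intergenic class, 5.99% and 9.31% for the antisense class and 6.45% and 9.27% for the exonic class. Of all 976 within a gene, tested or not, 13.9% ended within that distance of the 3′ end. Of those described below as called, the ones in Igfbp5 and Rfx5 ended 2 and 215 bases from the 3′ end. Those in Lifr and Spred1 ended 1614 and 2630 bases from it, and those in Plcb4, Phf20 and Celf2 25742, 95555 and 536400 bases from it.

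Markers of cell types differed between the groups. Of 10 skeletal muscle markers 10 were called higher after 5-AZA among the genes of the mRNA table, with a summed level of 1.28 to 1.60 FPKM untreated and 822 to 1261 FPKM after 5-AZA. Of 7 adipocyte markers 5 were called higher (30.1 to 45.3 FPKM against 1094 to 1504 FPKM). Of 11 mesenchymal markers 9 were at 1 FPKM or more in both untreated samples and 10 in both 5-AZA samples. Their sum went from 2950 and 3046 FPKM to 1962 and 2164 FPKM, but of the 10 tested 1 was called higher and 0 lower. Of 4 chondrocyte markers tested 3 were called lower and 1 higher (81.2 to 92.7 FPKM against 15.1 to 22.7 FPKM). Of 9 cardiac markers 5 were listed at 0, among them Nppa and Tbx5, and of the 3 tested 2 were called higher (2.52 to 2.88 FPKM against 30.7 to 46.6 FPKM). Of 4 blood markers Cd3e and Hbb-bs were listed at 0 and the 1 tested was called higher (1.16 to 1.47 FPKM against 2.33 to 3.69 FPKM). Of 3 epithelial markers 2 were called higher (0.497 to 0.546 FPKM against 4.58 to 5.66 FPKM). Of 3 endothelial markers Kdr was listed at 0, and of the 2 tested 1 was called higher (0.0295 to 0.0807 FPKM against 0.405 to 0.653 FPKM). No transcript of the class lay within any of these marker genes, and the part of cell type in the lncRNA changes was not tested. Across all genes tested, 13.1% were called higher and 1.32% lower.

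Whether 5-AZA treatment changed the sense non-exonic lncRNAs was tested with limma on log2(FPKM + 0.1), fitted over all 24075 lncRNAs that averaged 0.1 FPKM or more. A transcript was called at a Benjamini-Hochberg adjusted p below 0.05 and a change over 2-fold. Of the 1124, 11 were called higher (0.979%) and 4 lower (0.356%), where 0.984% and 0.154% of all lncRNAs tested were called, or 1.14% in either direction. The share called higher was thus at the background, and 4 calls are few to set against it in the other direction. At an unadjusted p below 0.05, 55 were higher (4.89%) and 108 lower (9.61%), beside 5.25% and 7.89% of all lncRNAs. This split depended on the scaling, as centring each sample on its median gave 66 higher and 71 lower and quantile normalization 65 and 84. Shares of all lncRNAs under these 2 scalings are not given here, so these counts have no background. On FPKM as deposited, all values of one group were above those of the other for 153 transcripts that were higher after 5-AZA (13.6%, background 14.6%) and for 427 that were lower (38.0%, background 31.7%). The median change was −0.27 on the log2 scale, against −0.23 over all lncRNAs, −0.25 for the intergenic and antisense classes and −0.26 for the exonic class. In bulk RNA, fewer cells that make a transcript and less of it per cell cannot be told apart. When any 1 sample was left out, all 15 calls kept their direction and a change over 2-fold. This is no support for the calls, because their groups did not overlap and so the direction could not turn. None of the 15 passed when all lncRNAs with any value above 0 were tested. Of the 15, 6 called higher reached a mean of 0.1 FPKM in the 5-AZA group only and 1 called lower in the untreated group only, so these passed the limit through the group where they were high.

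**Figure D2:**
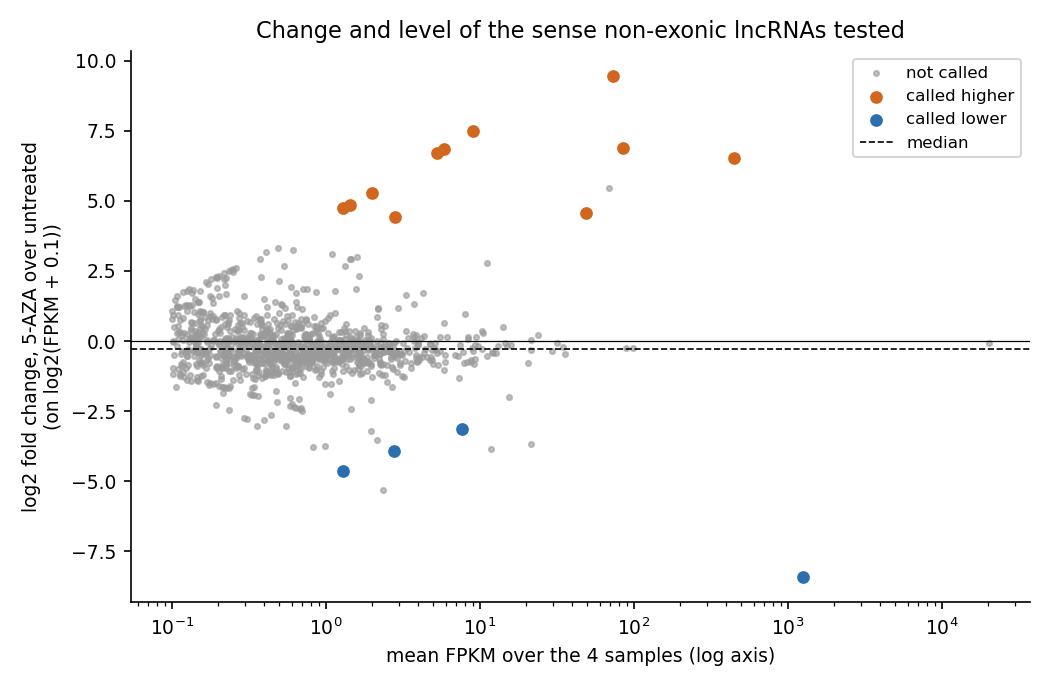
Each point is 1 of the 1124 sense non-exonic lncRNAs tested, with its mean FPKM over the 4 samples (horizontal, log axis) and its log2 fold change, 5-AZA over untreated (vertical); coloured points are the 11 called higher and 4 called lower, and the dashed line is the median of −0.27. The called transcripts stand apart from the body of points at mean levels above 1 FPKM.

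By exon number the median change was −0.31 for 1 exon, −0.15 for 2 exons and −0.17 for 3 or more. Calls fell in each class, with 6 higher and 2 lower among 829 transcripts with 1 exon, 1 and 1 among 164 with 2 exons, and 4 and 1 among 131 with 3 or more. In the intergenic class 54 were called higher and 8 lower among 9048 with 1 exon. There, 24 and 3 were called among 1858 with 2 exons and 35 and 3 among 1258 with 3 or more. In the same order of exon number, the exonic class gave 0 and 0 among 392, 3 and 0 among 88, and 2 and 0 among 59. The antisense class gave 5 and 3 among 839, 5 and 0 among 170, and 5 and 0 among 112. NONCODE lncRNAs without a class gave 47 and 9 among 6556, 27 and 5 among 1469, and 13 and 0 among 972. Calls by exon number over all lncRNAs are not given here. By length, the median was 0.04 under 500 bases (47 transcripts), −0.29 from 500 to under 1000, −0.35 from 1000 to under 2000 and −0.25 at 2000 bases or more. The 541 transcripts of the longest class gave 4 calls higher and 0 lower, with 28 and 45 at an unadjusted p below 0.05 in limma. Shares by length over all lncRNAs were not counted, so these numbers have no background. By position, the median was −0.35 for the 510 within a same-strand protein-coding gene and −0.18 for the 139 with no gene under them. The other classes showed the same split, with −0.31 and −0.16 for the intergenic class, −0.34 and −0.15 for the antisense class and −0.37 and −0.19 for the exonic class.

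Of the 11 transcripts called higher, 4 had no gene under them and these included the 3 largest fitted rises. NONMMUT002432.2 (chr1:124973782-125318869, + strand, 11 exons, 1740 bases) was measured at 9.54 and 9.38 FPKM untreated and at 803 and 968 FPKM after 5-AZA. The samples of each group lay close together and the groups far apart, and the log2 fold change was 6.53 ± 0.18 SE (limma adjusted p = 0.00462). After 5-AZA it was the transcript of highest level in the class apart from the one over mt-Rnr1. The nearest gene was Actr3, which encodes a subunit of the Arp2/3 actin nucleator, at 74036 bases, and its mRNA was at 136 and 125 FPKM untreated and 85.4 and 96.6 FPKM after 5-AZA.

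NONMMUT039292.2 (chr2:118555015-118558326, + strand, 1 exon, 3312 bases) and NONMMUT039291.2 (chr2:118554991-118555819, + strand, 3 exons, 760 bases) start close together and overlap. NONMMUT039292.2 gave 1.16 and 1.51 FPKM untreated and 154 and 185 FPKM after 5-AZA (log2 fold change 6.89 ± 0.22 SE, limma adjusted p = 0.00462). NONMMUT039291.2 was below 0.001 FPKM in both untreated samples and at 14.6 and 21.8 FPKM after 5-AZA (7.49 ± 0.31 SE, adjusted p = 0.00588). Since reads of the shared bases could go to either entry, the 2 are not separate observations. The 7 lncRNAs of the table that overlap NONMMUT039292.2 or are it summed to 1.78 and 2.78 FPKM untreated and 186 and 227 FPKM after 5-AZA. The nearest gene, Bmf, which encodes a BH3-only protein that promotes apoptosis, lay 5329 bases away and was at 2.53, 3.39, 3.45 and 3.76 FPKM in the 4 samples, a log2 difference of 0.29 with an adjusted p of 0.356.

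NONMMUT076508.1 (chr1:140823327-140823718, + strand, 1 exon, 392 bases) had the largest fitted rise of the class. It stood at 0.331 FPKM in untreated replicate 1 and below 0.001 FPKM in replicate 2, and at 137 and 157 FPKM after 5-AZA (log2 fold change 9.46 ± 0.74 SE, limma adjusted p = 0.0220). The size of this change follows the pseudocount, because the untreated values lie around it, and with a pseudocount of 0.01 FPKM it was no longer called (adjusted p = 0.145). The nearest gene, Kcnt2, which encodes a sodium-activated potassium channel, was 209282 bases away and its log2 fold change was 0.11 (adjusted p = 0.852).

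A further 5 transcripts called higher lay within a same-strand protein-coding gene. NONMMUT022666.2 (chr15:7193513-7195875, + strand, 1 exon, 2363 bases) lies in Lifr, which encodes the receptor of leukaemia inhibitory factor. It was at 0.00213 FPKM and below 0.001 FPKM in the untreated samples and at 9.24 and 14.2 FPKM after 5-AZA (log2 fold change 6.84 ± 0.33 SE, limma adjusted p = 0.00723). Lifr mRNA was at 20.2 and 18.5 FPKM untreated and 59.8 and 56.1 FPKM after 5-AZA, a log2 fold change of 1.57 ± 0.10 SE (adjusted p = 1.21e-05). Both rose, the lncRNA from near 0 and the mRNA from a level it already had.

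NONMMUT040737.2 (chr2:156211188-156214398, + strand, 4 exons, 3144 bases) lies in Phf20, which encodes a methyl-lysine reader of a histone acetyltransferase complex. It was below 0.001 FPKM in both untreated samples and at 10.3 and 10.7 FPKM after 5-AZA (log2 fold change 6.73 ± 0.26 SE, limma adjusted p = 0.00483). Phf20 mRNA stayed between 9.92 and 10.9 FPKM in all 4 samples, with a log2 fold change of −0.04 ± 0.13 SE. The lncRNA thus reached the level of the mRNA in the 5-AZA samples. The other tested transcript in Phf20, NONMMUT040736.2, gave 0.830 and 0.752 FPKM untreated and 0.635 and 0.719 FPKM after 5-AZA.

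NONMMUT001471.2 (chr1:72858067-72859857, − strand, 1 exon, 1791 bases) lies in Igfbp5, which encodes a secreted protein that binds insulin-like growth factors and is known from muscle differentiation. It was below 0.001 FPKM in both untreated samples and at 5.23 and 2.72 FPKM after 5-AZA (log2 fold change 5.28 ± 0.43 SE, limma adjusted p = 0.0234). Igfbp5 mRNA went from 1.15 and 0.605 FPKM to 21.0 and 24.7 FPKM (4.61 ± 0.26 SE, adjusted p = 5.54e-06). Both rose. How their sizes compare depends on the pseudocount, since the lncRNA's change was 8.56 with 0.01 FPKM and 2.27 with 1 FPKM, where it was no longer called (adjusted p = 0.0922), and its change relative to the host was 0.67 ± 0.55 SE with 0.1 FPKM and −1.41 with 1 FPKM. The lncRNA ends 2 bases from the gene's 3′ end, and whether it shares bases with the mRNA's last exon was not examined.

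NONMMUT044139.2 (chr3:94960118-94961346, + strand, 1 exon, 1229 bases) lies in Rfx5, which encodes a transcription factor of the major histocompatibility class II promoters. It was below 0.001 FPKM in both untreated samples and at 2.08 and 3.69 FPKM after 5-AZA (log2 fold change 4.85 ± 0.41 SE, limma adjusted p = 0.0264, or 0.0934 with a pseudocount of 1 FPKM), while Rfx5 mRNA was at 4.19 and 4.90 FPKM untreated and 3.46 and 4.02 FPKM after 5-AZA. NONMMUT040091.2 (chr2:135988498-135988860, + strand, 2 exons, 309 bases) lies in Plcb4, which encodes a phospholipase C. It rose from 3.14 and 4.29 FPKM to 61.6 and 127 FPKM (4.55 ± 0.42 SE, adjusted p = 0.0311). Plcb4 mRNA was at 10.2, 11.5, 14.97 and 15.5 FPKM in the 4 samples (log2 fold change 0.49 ± 0.12 SE, limma adjusted p = 0.0197). The short lncRNA was thus below its host untreated and above it after 5-AZA. The other tested transcript in Plcb4, NONMMUT040089.2, gave 1.29, 0.891, 1.28 and 1.43 FPKM in the same order.

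The remaining 2 called higher lay over genes whose strand was not known. NONMMUT032520.2, 1 exon of 3225 bases on chromosome 18 over Gm4951, gave 0.200 and 0.114 FPKM untreated and 6.73 and 4.27 FPKM after 5-AZA (log2 fold change 4.43 ± 0.37 SE, limma adjusted p = 0.0257). Gm4951 mRNA went the same way, from 0.248 and below 0.001 FPKM to 9.58 and 9.97 FPKM. NONMMUT022150.2 (chr14:105589549-105594928, + strand, 3 exons, 845 bases), over 9330188P03Rik, was below 0.001 FPKM in both untreated samples and at 2.82 and 2.38 FPKM after 5-AZA (4.75 ± 0.32 SE, adjusted p = 0.0145). The 12 lncRNAs there, itself included, summed to 0.0583 and 0.167 FPKM untreated and 10.3 and 7.86 FPKM after 5-AZA.

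Of the 4 called lower, NONMMUT035535.2 (chr2:7076094-7076414, − strand, 1 exon, 321 bases) fell most. It lies in Celf2, which encodes an RNA-binding protein that regulates splicing and is high in muscle and brain. It stood at 2209 and 2823 FPKM in the untreated samples, the second highest level of the class, and at 3.54 and 14.3 FPKM after 5-AZA (log2 fold change −8.43 ± 0.70 SE, limma adjusted p = 0.0251). It made up much of the class in untreated cells, where the summed level without the mitochondrial entry was 4224 and 4822 FPKM, against 2992 and 3246 FPKM after 5-AZA. The FPKM of so short a transcript rests on few bases.

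NONMMUT039242.2 (chr2:117178234-117179649, + strand, 1 exon, 1416 bases) lies in Spred1, which encodes an inhibitor of Ras to MAP kinase signalling. It gave 14.96 and 12.7 FPKM untreated, as high as Spred1 mRNA itself (15.7 and 12.7 FPKM), and 1.13 and 1.97 FPKM after 5-AZA (log2 fold change −3.12 ± 0.33 SE, limma adjusted p = 0.0445). Spred1 mRNA was at 16.2 and 15.4 FPKM after 5-AZA. The other tested transcript there, NONMMUT039241.2, was also lower in both 5-AZA samples, at 1.95 and 2.64 FPKM against 1.12 and 1.49 FPKM, and was not called (−0.77 ± 0.30 SE, adjusted p = 0.395).

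NONMMUT029371.2, whose start is printed above, has 4 exons and 520 bases over 1110038B12Rik, a noncoding gene that also holds the small nucleolar RNA Snord52. It gave 6.13 and 4.47 FPKM untreated and 0.175 and 0.347 FPKM after 5-AZA (log2 fold change −3.93 ± 0.37 SE, limma adjusted p = 0.0334). Neighbouring entries of the class went different ways. NONMMUT029372.2 gave 4.30, 4.56, 2.30 and 1.41 FPKM, NONMMUT029355.2 gave 4.21, 3.41, 1.02 and below 0.001 FPKM, and NONMMUT029373.2 gave 4.48, 4.52, 2.27 and 7.67 FPKM, in the order untreated 1 and 2, 5-AZA 101 and 102. These 3 were chosen after their values were seen. The 21 lncRNAs that overlap there summed to 116 and 112 FPKM untreated and 84.3 and 102.6 FPKM after 5-AZA, so the fall of the 1 entry was not that of the whole locus.

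NONMMUT027383.2 (chr16:77594366-77594967, + strand, 2 exons, 408 bases), with no gene under it, gave 1.84 and 3.34 FPKM untreated and below 0.001 and 0.00642 FPKM after 5-AZA (log2 fold change −4.64 ± 0.42 SE, limma adjusted p = 0.0306). The 11 lncRNAs at this place, itself included, summed to 62.3, 70.5, 66.2 and 44.3 FPKM. As over 1110038B12Rik, the sum moved far less than the called entry did.

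**Figure D3:**
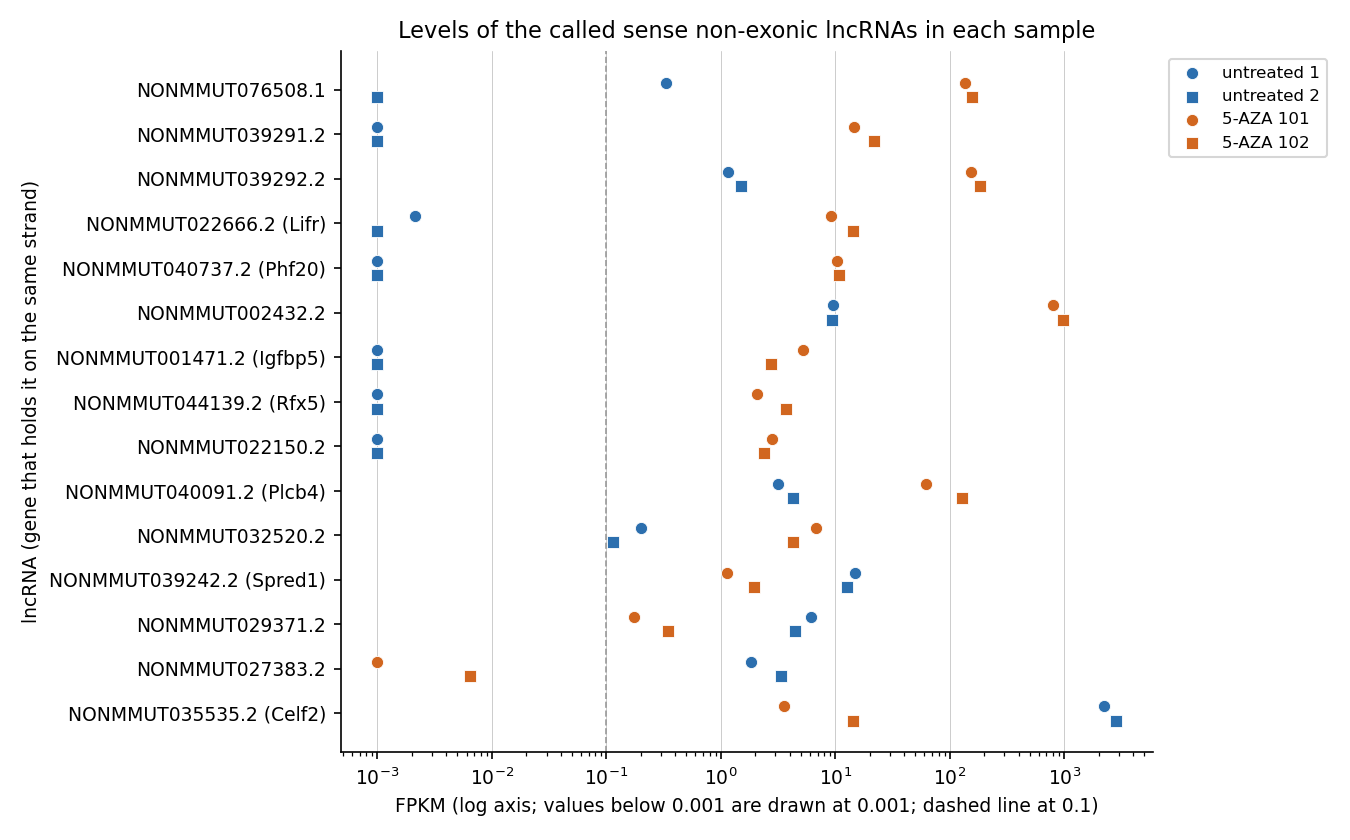
FPKM (horizontal, log axis, values below 0.001 drawn at 0.001) of the 15 called lncRNAs in each sample, ordered by log2 fold change, with circles for replicates 1 and 101 and squares for replicates 2 and 102. No group overlaps the other in any row, and 5 of the transcripts were below 0.001 FPKM in both untreated samples.

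Among large differences that were not called, some had replicates far apart. NONMMUT034843.2 (1 exon, 2811 bases), over Scd1, which encodes a stearoyl-CoA desaturase of fat synthesis, gave 0.500 and 14.5 FPKM untreated and 128 and 134 FPKM after 5-AZA (log2 fold change 5.47 ± 1.57 SE, limma adjusted p = 0.306). Scd1 mRNA was called higher, from 45.9 and 35.4 FPKM to 224 and 284 FPKM. NONMMUT030876.2, over Mta3, gave 2.00 and 7.37 FPKM untreated and was listed at 0 in both 5-AZA samples (adjusted p = 0.0779). NONMMUT042327.2, within Fndc3b, gave 21.0 and 18.8 FPKM untreated and 7.52 and 0.152 FPKM after 5-AZA (adjusted p = 0.442), while Fndc3b mRNA was at 18.98 and 18.2 against 17.8 and 23.0 FPKM.

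Disagreement between replicates took a plain form in some transcripts, where one replicate was at 1 FPKM or more and its partner below 0.01 FPKM. Of the 528 that reached 1 FPKM in any sample, 26 (4.92%) showed this, 15 between the untreated replicates and 13 between those with 5-AZA, some in both. The share was 3.75% for 1 exon, 8.33% for 2 exons and 8.82% for 3 or more. In the other classes it was 5.08% for exonic, 5.77% for antisense, 8.42% for intergenic and 10.9% for NONCODE lncRNAs without a class. NONMMUT024972.2 over Tmbim6 gave 22.9, 26.3, below 0.001 and 36.7 FPKM. Less sharply, NONMMUT024403.2 over Poldip3 gave 32.7, 3.36, 0.177 and 25.4 FPKM, and NONMMUT025597.2 within Marf1 gave 20.8, 0.0392, 9.22 and 14.5 FPKM. The genes did not share this, as Poldip3 mRNA stayed between 41.0 and 50.1 FPKM and Marf1 mRNA between 11.9 and 12.3 FPKM. The transcripts over Poldip3 and in Marf1 were chosen after their values were seen.

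A lncRNA inside a gene may move with that gene, so the change of the ratio of lncRNA to host was tested in the same way over the 7932 lncRNAs of any class with a measured same-strand host. Of the 503 sense non-exonic transcripts among them, 2 were called higher than the host's change (0.398%, background 0.063%) and 0 lower (background 0.0378%). The background of 0.063% is 5 transcripts, these 2 among them. At an unadjusted p below 0.05 in limma, 13 were higher (2.58%, background 1.59%) and 43 lower (8.55%, background 8.11%). The 2 were those of Phf20 (6.76 ± 0.25 SE on the log2 scale, limma adjusted p = 0.00929) and Lifr (5.27 ± 0.34 SE, adjusted p = 0.0437), of which the second was not called with a pseudocount of 1 FPKM (adjusted p = 0.0818), with the highest host transcript (0.0729) or without trend (0.101). The transcripts in Celf2 and Rfx5 were at an adjusted p of 0.0506 each, with −9.03 ± 0.65 SE and 5.12 ± 0.36 SE, and those in Plcb4 and Spred1 at 0.1002 and 0.1004. The lncRNAs in Phf20, Lifr and Rfx5 averaged below 0.1 FPKM untreated and passed the limit through the 5-AZA group. Each could enter only by being higher after 5-AZA, and its untreated ratio rests on the pseudocount. The median change of the ratio was −0.29 for the class and −0.29 for all lncRNAs with a host. With the highest host transcript in place of the summed gene 1 was called higher and 1 lower, and with 1 sample left out none was.

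**Figure D4:**
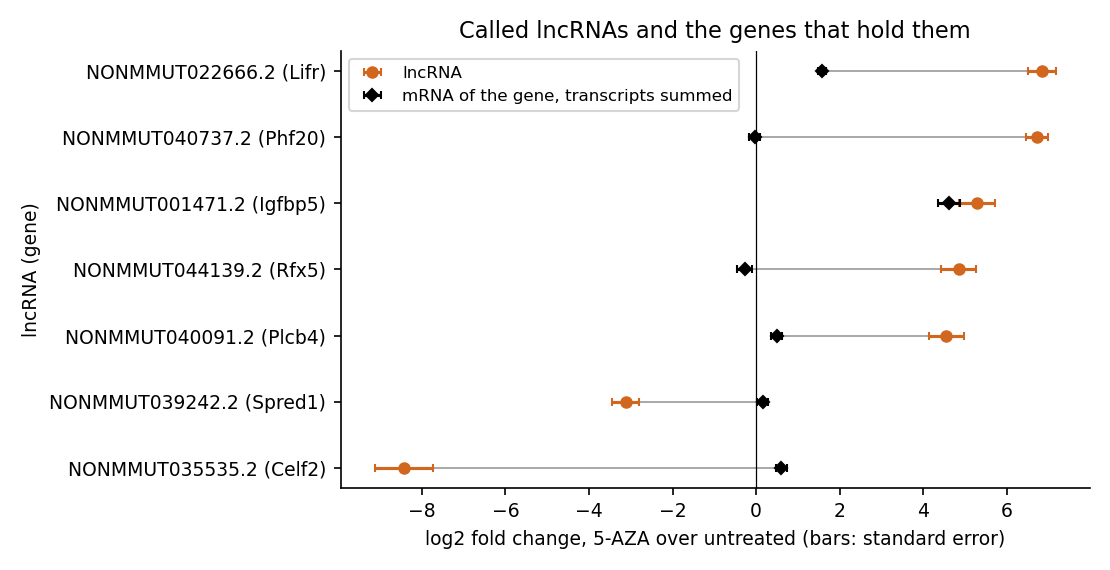
Log2 fold change, 5-AZA over untreated (horizontal, bars show the standard error, pseudocount 0.1 FPKM), of the 7 called lncRNAs that lie in a same-strand protein-coding gene (circles) and of that gene's mRNA with its transcripts summed (diamonds). Both members of the pair lie above 0 for Lifr, Igfbp5 and Plcb4. The mRNA lies within 1 of no change for Phf20, Rfx5, Plcb4, Spred1 and Celf2.

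Celf2 held more of the class than any other gene, with 21 transcripts, of which 19 were tested, 17 of them with 1 exon. Celf2 mRNA was at 7.92 and 8.05 FPKM untreated and 11.6 and 12.8 FPKM after 5-AZA (log2 fold change 0.60 ± 0.13 SE, limma adjusted p = 0.00882). The tested lncRNAs spanned means of 0.126 to 1262 FPKM with a median of 0.783 FPKM. The fit put 14 above 0 and 5 below, and 10 of the 19 were higher without overlap and 2 lower, where 14.6% and 31.7% of all lncRNAs were. However, 7 of the 10, and all 6 that were higher at an unadjusted p below 0.05, reached 0.1 FPKM in the 5-AZA group only and passed the limit through it, so these counts are a description. Only NONMMUT035535.2 was called.

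The Celf2 transcripts differed by where in the gene they lay, a pattern seen after their values were looked at. The 11 that began 527938 bases or more from the gene's 5′ end, the last of them NONMMUT035505.2 at 831230 bases, were measured in all 4 samples. Their fitted log2 changes ran from −0.81 to 0.85, as in NONMMUT035519.2 with 2.25 and 2.68 FPKM untreated and 1.89 and 2.38 FPKM after 5-AZA, or NONMMUT035511.2 with 1.04 and 1.30 against 1.02 and 1.35 FPKM. Of the 8 that began nearer the 5′ end, from 315028 to 515337 bases, 6 were listed at 0 in both untreated samples and had values in both 5-AZA samples, and a transcript at 0 untreated could enter the tested set only by being higher after 5-AZA. NONMMUT035522.2 (chr2:6880410-6881004) gave 0.577 and 1.37 FPKM after 5-AZA, and NONMMUT035536.2 (chr2:7077265-7081313), with 2 exons, gave 0.498 and 0.380 FPKM. NONMMUT035526.2 gave 0.352 and 0.464 FPKM, NONMMUT035527.2 0.367 and 0.299 FPKM, NONMMUT035528.2 0.519 and 0.0896 FPKM, and NONMMUT035533.2 0.299 and 0.205 FPKM. The seventh, NONMMUT035530.2 (chr2:6922702-6928722), which is 6021 bases long, went from 0.00651 and 0.00660 FPKM to 0.556 and 0.438 FPKM. The eighth was NONMMUT035535.2, which fell, and whose neighbour on the same strand is NONMMUT035536.2. The 2 Celf2 transcripts under the limit lay in the same stretch. NONMMUT035534.2 was listed at 0 in both untreated samples and at 0.299 and 0.0872 FPKM after 5-AZA, and NONMMUT035532.2 was below 0.001 FPKM untreated and at 0.0929 and 0.0540 FPKM after 5-AZA. None of the 7 that were higher was called (adjusted p from 0.136 to 0.456), and all 19 lie within 1 gene and are not independent.

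**Figure D5:**
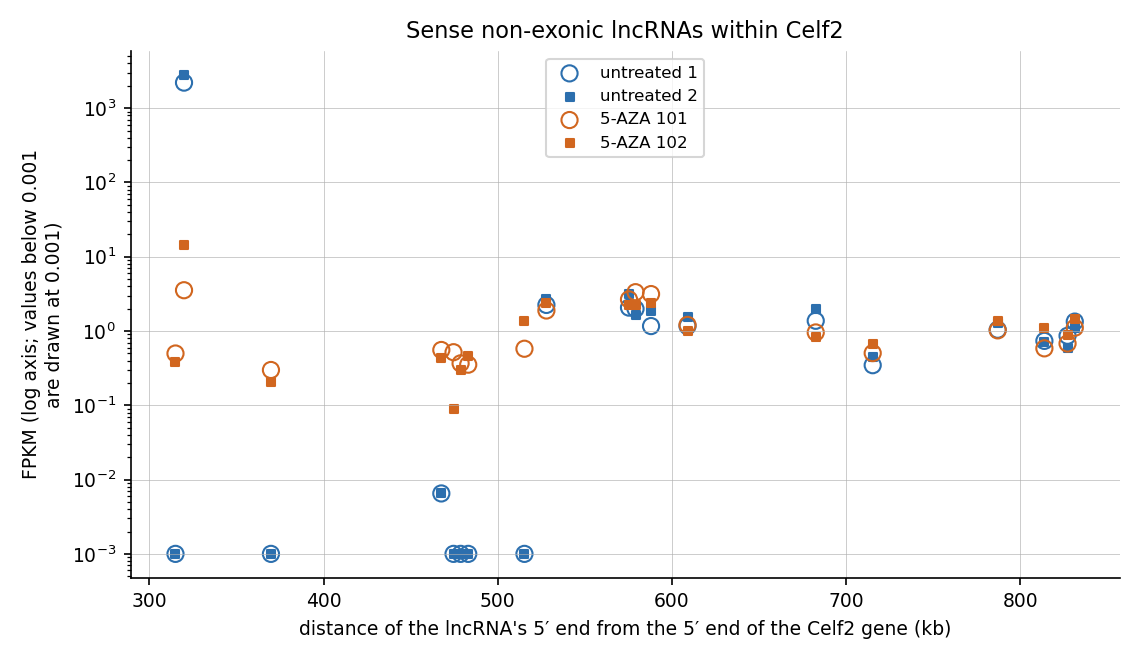
FPKM (vertical, log axis, values below 0.001 drawn at 0.001) of the 19 tested lncRNAs within Celf2 in each sample, against the distance of the lncRNA's 5′ end from the gene's 5′ end in kilobases. Up to 515337 bases, 7 transcripts lie near 0 in the untreated samples (blue) and between 0.0896 and 1.37 FPKM after 5-AZA (orange), 1 lies at 2209 and 2823 FPKM untreated, and beyond that distance the colours mix.

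Pcdh9, which encodes a protocadherin of cell adhesion, held 17 transcripts and all were tested, 16 with 1 exon. Their means ran from 0.138 to 1.73 FPKM. The fit put 15 of the 17 below 0, 9 were lower and 1 higher without overlap (background 31.7% and 14.6%, and 38.0% of the class lower), the median log2 change was −0.46 beside −0.27 for the class, and none was called or reached an unadjusted p below 0.05 in limma. The gene's mRNA was at 3.36 and 2.56 FPKM untreated and 1.80 in both 5-AZA samples (log2 fold change −0.67 ± 0.21 SE, adjusted p = 0.0517). NONMMUT021906.2 was the highest, at 1.31, 2.46, 1.42 and 1.74 FPKM. NONMMUT021899.2 was the exception that was higher, at 0.124 and 0.139 FPKM untreated and 0.515 and 0.277 FPKM after 5-AZA. Both are named here for their values. Of the 7 transcripts in Ablim1, which encodes an actin-binding protein, 6 were fitted below 0, and of the 6 tested in Gbf1, which encodes an exchange factor of Golgi traffic, 3 were below and 3 above. None of these 13 was called. Transcripts within 1 gene are not independent, so the counts for these genes are descriptions. The share of all lncRNAs fitted below 0 was not counted, but their median change was itself −0.23.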

How the data were processed

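The authors trimmed reads with Trimmomatic, and the submitters' processing notes also name HISAT2, Bowtie2 2.2.9, eXpress 1.5.1 and mm9. The deposited tables give FPKM per transcript, which corrects for length and library size but keeps no counts. The study's own test used counts and could not be repeated on FPKM. Here, log2(FPKM + 0.1) was fitted with limma 3.58.1 (R 4.3.3, empirical Bayes with trend) over all lncRNAs with a mean of at least 0.1 FPKM, with 2 samples a group. Fold changes are on that scale and understate changes of low transcripts. Gene levels are sums over mRNA transcripts. The host is the smallest gene of the same strand, from RefSeq, that holds the lncRNA's span, and of 21879 genes 17268 had a strand. Listed starts were read as 0-based and are given 1-based. Lists and members were chosen with earlier results of these data known. Named were all called transcripts, the 10 of highest mean, the 5 highest and 5 lowest changes without overlap at 1 FPKM or more, the highest of each class of exon number and length, those at the limit of 0.1 FPKM, and hosts; others are marked in the text. The fit was checked on simulated data. Alternatives were other pseudocounts and limits, centring, quantile normalization, no trend, the top host transcript, and leaving out each sample. The replicates are called biological repeats, but nothing says that they were separate cultures, so p-values measure only the spread between these samples. An exact permutation test of 2 against 2 could not go below 0.333. Columns of the authors' own comparisons (fold changes and p-values) and the circular RNA table were not used. Python 3.11.15 with pandas 2.3.3 and matplotlib 3.10.9 made the tables and figures.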

Additional observations from a re-analysis of the deposited data

How the results depend on the processing

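With 11 transcripts called higher and 4 lower in the limma fit, testing every lncRNA with a value above 0 left 0 and 0, with 87 and 155 at an unadjusted p below 0.05. Leaving out any 1 sample left 0 to 0 in each direction, with 48 to 75 higher and 61 to 114 lower at an unadjusted p below 0.05, the lone sample being assumed to vary like the other group. A pseudocount of 0.01 FPKM left 2 lower and no trend in the variance left 0 lower (84 at an unadjusted p below 0.05), while the count called higher stayed from 8 to 11 under the other settings. The median change of −0.27 became −0.32 with a pseudocount of 0.01, −0.13 with 1, 0.00 with no limit, −0.11 when samples were centred and −0.13 after quantile normalization, and ran from −0.30 to −0.22 with 1 sample left out. Relative to the host, 2 higher became 3 with a pseudocount of 1, that in Lifr not among them, 1 with the top host transcript and 1 without trend. The 0 lower (43 at an unadjusted p below 0.05 in limma) became 3 with a pseudocount of 1, 1 with 0.01 and 1 with the top host transcript. Calls lost were those of NONMMUT076508.1, NONMMUT029371.2 and NONMMUT039242.2 with a pseudocount of 0.01, of NONMMUT001471.2, NONMMUT044139.2 and NONMMUT027383.2 with 1, of the same 3 and NONMMUT022150.2 with a limit of 1 FPKM, of NONMMUT039242.2 when centred, and of all 4 lower, NONMMUT032520.2 and NONMMUT040091.2 without trend. The causes were not tested.

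With 1 sample left out, the fitted change of transcripts that were not called turned sign in the following ranges. Among them, NONMMUT033789.2, over Snhg1, is not described above and was chosen after its values were seen. The change was for NONMMUT024972.2 from −7.94 to 0.58, NONMMUT024403.2 from −5.27 to 1.26, NONMMUT033789.2 from −0.65 to 0.14, NONMMUT000124.2 from −0.45 to 0.080, NONMMUT029373.2 from −0.96 to 0.76, NONMMUT071574.2 from −0.27 to 0.14, NONMMUT039411.2 from −0.047 to 0.23, NONMMUT073494.2 from −0.35 to 0.85 and NONMMUT025597.2 from −0.84 to 6.39. Relative to the host it was for NONMMUT038259.2 from −0.34 to 0.078, NONMMUT039411.2 from −0.39 to 0.30 and NONMMUT025597.2 from −0.84 to 6.35. Centring gave 0.065 for NONMMUT029373.2 and 0.10 for NONMMUT071574.2, and a pseudocount of 1 gave −1.41 for NONMMUT001471.2 relative to Igfbp5.

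No paired analysis was possible because the groups share no replicate number. With no counts deposited, depth and counting error are unknown, and a value near 0 can be a failed estimate. All 15 calls rest on 2 samples a group.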
